A study of Arabidopsis thaliana with 14 samples.

Results

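The intergenic H3K36me3 regions on the chromosome arms of Arabidopsis thaliana are described here. They are the regions on the 5 nuclear chromosomes that overlapped no annotated gene of any biotype over their whole span. Their centre also lay outside a window set around each centromere. There were 2493 such regions among 52432 nuclear regions at 25 °C (4.76%, Wilson 95% interval 4.58 to 4.94) and 2945 among 50167 at 16 °C (5.87%, 5.67 to 6.08). The windows left out ran from 12.5 to 17.5 Mb on chromosome 1, 1.5 to 6.0 Mb on chromosome 2, 11.5 to 16.0 Mb on chromosome 3, 2.0 to 5.5 Mb on chromosome 4 and 9.5 to 14.5 Mb on chromosome 5.

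The data come from chromatin immunoprecipitation with sequencing (ChIP-seq) on wild-type Col-0 shoots, stripped of leaves to enrich the shoot apical meristem. All plants were raised for 5 weeks in short days (8 h light, 16 h dark) at 16 °C. The first group was harvested 1 day after transfer to 25 °C and the other was kept at 16 °C. Each had 4 H3K36me3 samples and 3 samples of total H3, of 0.5 g of tissue each, and H3 values were not analysed here. The title of replicate A of H3K36me3 at 25 °C names H3K36me3, but its antibody label names H3. The replicates of a temperature were pooled by the authors into 1 list, so that sample could not be looked at by itself and no value below has a replicate check. Intervals cover counting error only, and neighbouring regions are not independent replicates. Read depth per sample is unknown, and the lists give regions rather than expression, so the meristem content of the tissue could not be checked against markers.

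H3K36me3 is histone H3 trimethylated at lysine 36. In plants as in other eukaryotes it is laid down by SET-domain methyltransferases that act with elongating RNA polymerase II, and in Arabidopsis SDG8 is the main enzyme for it. In Arabidopsis the mark is known chiefly from the 5′ part of transcribed gene bodies. The sequence between Arabidopsis genes is short, AT-rich and holds promoters, and it also carries fragments of organelle DNA that were transferred to the nucleus during evolution.

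Sequences at some of these regions are printed here, first those beside some of the tallest ones. The first 4 below are chloroplast-like stretches of the nuclear genome with a region on both sides in both lists. They have the tallest regions at 25 °C among such matches counted as chloroplast, without those counted as matching both organelle genomes. Whether the ones counted as chloroplast also occur in the mitochondrial genome was not checked for this count. Capitals mark the bases identical to the chloroplast genome, with 40 bases of nuclear sequence on each side, on the plus strand of TAIR10. They lie at chr3:16356989-16357159, chr3:17206008-17206157, chr1:11131142-11131280 and chr4:16920965-16921112, all between annotated genes. The second of them matches psaA, which encodes a core protein of photosystem I, and the last matches rpoA, which encodes a subunit of the chloroplast RNA polymerase. The other pair match chloroplast sequence with no annotated gene.
chr3 copy between AT3G44805 and AT3G44810: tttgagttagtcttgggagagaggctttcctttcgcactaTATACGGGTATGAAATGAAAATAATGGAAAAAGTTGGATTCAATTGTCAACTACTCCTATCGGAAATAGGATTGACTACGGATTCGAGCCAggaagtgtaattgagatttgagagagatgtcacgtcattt
chr3 copy between AT3G46700 and AT3G46710: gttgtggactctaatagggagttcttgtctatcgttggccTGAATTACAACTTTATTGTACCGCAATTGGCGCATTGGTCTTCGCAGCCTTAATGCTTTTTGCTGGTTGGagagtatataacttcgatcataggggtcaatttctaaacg
chr1 copy between AT1G31166 and SRX: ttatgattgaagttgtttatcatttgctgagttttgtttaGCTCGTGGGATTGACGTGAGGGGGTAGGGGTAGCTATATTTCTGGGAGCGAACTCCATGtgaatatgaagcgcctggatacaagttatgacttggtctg
chr4 copy between AT4G35685 and AT4G35690: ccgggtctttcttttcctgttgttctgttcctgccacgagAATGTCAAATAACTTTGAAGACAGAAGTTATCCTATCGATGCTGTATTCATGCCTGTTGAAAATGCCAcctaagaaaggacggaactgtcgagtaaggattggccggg

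The last 3 are regions away from organelle matches found at both temperatures, the first pair of which were chosen for their ratio of heights, with the bases that lie inside the regions of both lists in capitals. The first is at chr5:1168821-1169060, upstream of ELF6, which encodes a JmjC-domain histone demethylase that represses flowering. The second is at chr4:15414821-15415070, beyond the end of MIR156c, a gene for the microRNA miR156 that holds plants in the juvenile phase. The third is at chr1:21649951-21650090 and is the region in both lists that lay farthest from a gene.
region beside ELF6: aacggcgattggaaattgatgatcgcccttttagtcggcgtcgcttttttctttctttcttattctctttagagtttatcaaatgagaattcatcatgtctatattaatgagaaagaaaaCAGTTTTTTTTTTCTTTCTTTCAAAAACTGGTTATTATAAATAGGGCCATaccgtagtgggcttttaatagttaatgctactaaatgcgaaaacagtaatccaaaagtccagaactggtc
region beside MIR156c: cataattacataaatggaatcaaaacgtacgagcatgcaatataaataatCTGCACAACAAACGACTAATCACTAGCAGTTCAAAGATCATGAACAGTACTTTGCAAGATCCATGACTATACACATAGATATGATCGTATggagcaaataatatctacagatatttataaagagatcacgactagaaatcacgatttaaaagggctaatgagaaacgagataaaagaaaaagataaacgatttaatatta
far region: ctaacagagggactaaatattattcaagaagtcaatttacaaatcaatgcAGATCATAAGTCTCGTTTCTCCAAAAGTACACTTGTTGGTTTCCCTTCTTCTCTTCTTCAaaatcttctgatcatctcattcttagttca

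The size of the regions was examined first. Intergenic arm regions were small and low. At both temperatures the median width was 80 bp (quartiles 60 to 120 at 25 °C, 50 to 120 at 16 °C), against 160 and 150 bp for arm regions that touched a protein-coding gene. The most frequent width was 40 bp, also the smallest, with 344 regions at 25 °C and 447 at 16 °C. A width of 100 bp or less was found for 1579 regions at 25 °C (63.3%) and 1951 at 16 °C (66.3%). Only 44 regions at 25 °C and 51 at 16 °C were wider than 200 bp. Reads had been extended to 150 bp by the authors, and 127 regions at 25 °C and 148 at 16 °C exceeded that length.

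The height of a region is its highest read coverage on the scale of the deposited lists. Its median was 222.7 at 25 °C (quartiles 202.5 to 250.4) and 221.2 at 16 °C (201.6 to 249.1). The lowest height of any region in the whole lists was 179.3 at 25 °C and 179.4 at 16 °C, so most intergenic arm regions stood just above the level at which a region was called. Heights under 300 were found for 2294 regions at 25 °C (92.0%) and 2720 at 16 °C (92.4%). For arm regions touching a protein-coding gene the median height was 301.2 at 25 °C and 281.0 at 16 °C. Heights of 500 or more were rare outside genes, with 25 regions at 25 °C and 31 at 16 °C.

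**Figure D1:**
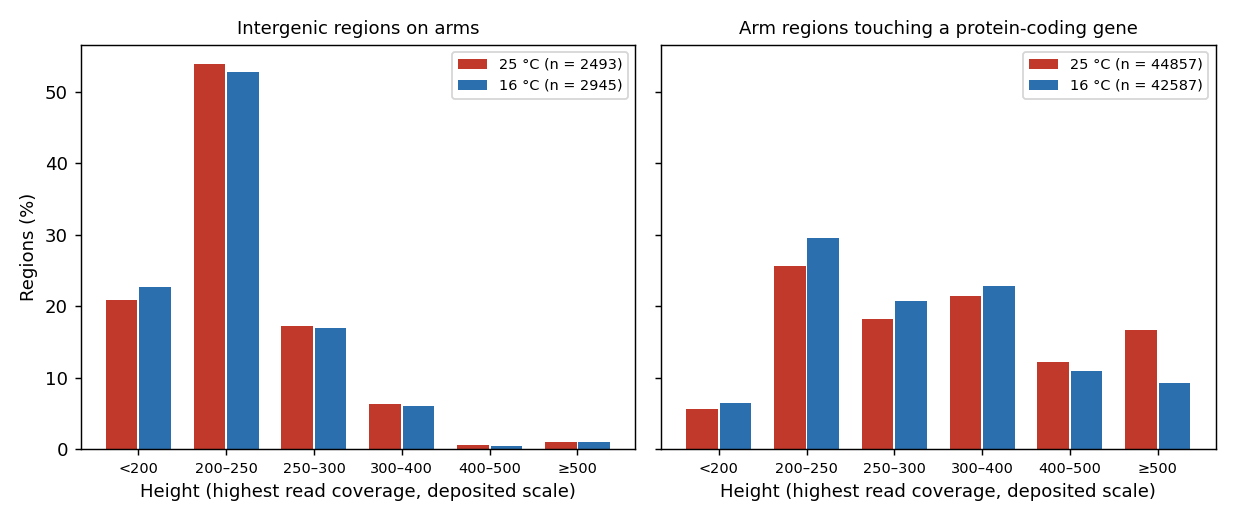
Share of regions (%) by height, the highest read coverage on the deposited scale, for intergenic arm regions (left; 2493 at 25 °C in red, 2945 at 16 °C in blue) and arm regions touching a protein-coding gene (right; 44857 and 42587). Most intergenic arm regions fall between 200 and 250 at both temperatures (53.9% and 52.7%), whereas the regions of genes are spread over all classes.

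The regions took up little sequence. They covered 233360 bp at 25 °C and 264110 bp at 16 °C, which was 1.46% and 2.21% of all nuclear sequence inside regions. Of the 31333895 bp of arm sequence outside genes, 0.745% was covered at 25 °C and 0.843% at 16 °C. Regions of any kind covered 1.28% and 1.27% of it, the remainder being the ends of regions that reached into a gene. Intergenic arm regions were found on all chromosome arms, at 76.4 to 82.8 per Mb of arm sequence outside genes at 25 °C and 83.6 to 100.4 per Mb at 16 °C.

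Regions next to the edges of the rule, on either side, were also compared, and they do not stand for the whole classes. At 25 °C the region nearest to a window, chr4:1999761-1999880, had a height of 248.3 and was counted, while the nearest one inside a window, chr3:15996181-15996220, had 221.5. At 16 °C the corresponding regions were chr5:9495231-9495370 with 330.7 and chr4:2002571-2002610 with 211.5. Regions 10 bp or less from a gene numbered 82 at 25 °C and 100 at 16 °C, with median heights of 229.7 and 222.3. Those that reached 10 bp or less into a gene, and so were left out, numbered 94 and 91, with 223.4 and 218.2.

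The agreement of the temperatures in position was asked next. Few intergenic arm regions were found at the same place at both temperatures. At 25 °C, 154 of 2493 (6.18%, interval 5.30 to 7.19) were overlapped by a region of the 16 °C list by at least 1 bp. At 16 °C, 185 of 2945 (6.28%, 5.46 to 7.22) were overlapped by a region of the 25 °C list. The remaining 2339 regions at 25 °C and 2760 at 16 °C were in 1 list only, whereas over all nuclear regions 49% at 25 °C and 35.6% at 16 °C were not overlapped. Arm regions touching a protein-coding gene were overlapped more often, in 54.0% (25 °C) and 69.4% (16 °C), and pericentromeric regions outside genes in 55.6% and 49.2%.

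Within each width class up to 500 bp the shares also differed. Among regions of 100 bp or less, 3.55% of intergenic arm regions at 25 °C and 4.203% at 16 °C were overlapped, against 20.4% and 41.5% of those touching a protein-coding gene. Between 100 and 200 bp the shares were 9.54% and 9.33%, against 39.1% and 65.6%. Between 200 and 500 bp they were 27.5% (11 of 40) and 28.0% (14 of 50), against 74.2% and 91.9%. In these 3 width classes the intervals of the intergenic and genic shares did not overlap at either temperature. Above 500 bp all 4 intergenic regions at 25 °C and the only one at 16 °C were overlapped.

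**Figure D2:**
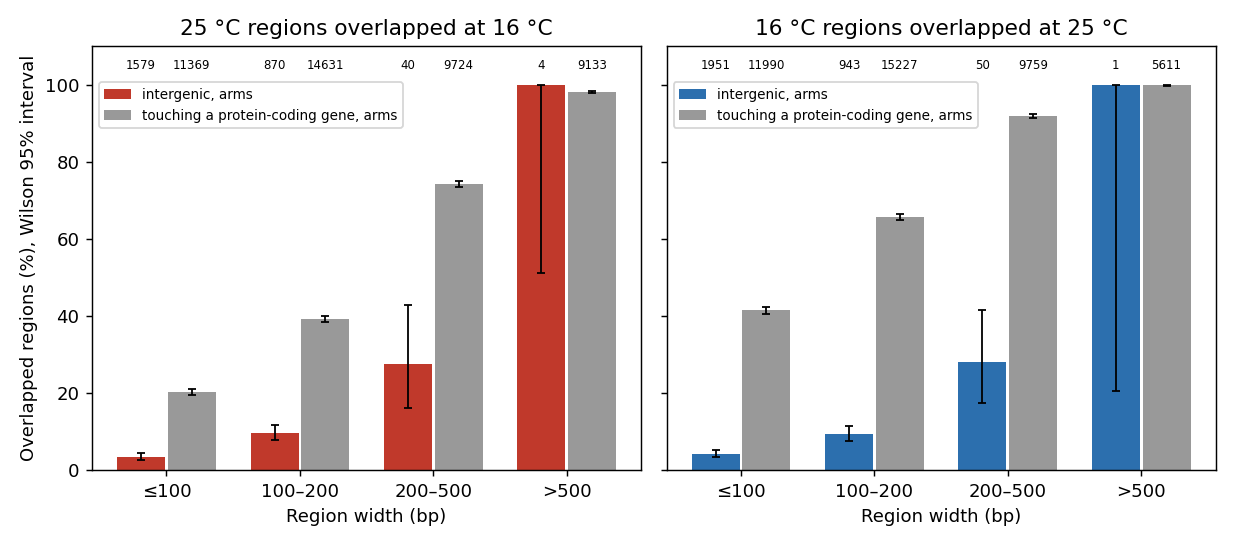
Share of regions (%) overlapped by a region of the other temperature, by region width (bp), for intergenic arm regions (red at 25 °C, blue at 16 °C) and arm regions touching a protein-coding gene (grey). Bars start at 0, lines are Wilson 95% intervals and the numbers on top are regions; up to 500 bp the intergenic bars are the lower ones, for instance 3.55% against 20.4% at 100 bp or less at 25 °C.

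Height gave a sharper division. Under a height of 200, 2.50% of intergenic arm regions at 25 °C and 4.78% at 16 °C were overlapped, and between 300 and 400 the shares were 8.75% and 10.6%. Genic arm regions of 300 to 400 were overlapped in 59.6% (25 °C) and 82.5% (16 °C). At 500 or more, all 25 intergenic arm regions at 25 °C (interval 86.7 to 100%) and 29 of 31 at 16 °C (93.6%, 79.3 to 98.2) were overlapped. The tall regions were thus largely the same loci, whereas the low ones mostly had no counterpart.

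Regions without a counterpart were mostly not near misses, although no such distances were taken for other regions or positions. The median distance to the other list was 1490 bp for those at 25 °C and 1420 bp for those at 16 °C, and only 11.7% and 11.96% lay within 200 bp of a region of the other list. Where there was a counterpart, it was itself an intergenic arm region for 120 of 154 at 25 °C and 122 of 185 at 16 °C. For the other 34 and 63, only a region reaching into a gene overlapped. Overlapped regions were wider, with medians of 125 bp (25 °C) and 120 bp (16 °C), against 80 bp for the rest at both temperatures. They also lay closer to genes, at a median of 126 bp (25 °C) and 121 bp (16 °C), against 327 and 331 bp for the rest. On a coarser scale, 464 gaps between genes held an intergenic arm region in both lists. This is 20.6% of the 2257 gaps with one at 25 °C and 18.1% of the 2566 at 16 °C. Of all 26456 gaps on the arms, 8.53% held one at 25 °C and 9.70% at 16 °C.

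For regions in both lists the heights could be set side by side. One-to-one pairs, in which a region of each list overlapped only the other, numbered 113. On the deposited scale their heights did not move in a common direction. Nuclear regions held 72.0% of the signal of all regions at 25 °C and 63.1% at 16 °C (ratio 1.142). The heights were not adjusted for this. The median ratio of heights, 25 °C over 16 °C, was 0.974 (quartiles 0.821 to 1.17), and 52 pairs (46.0%, interval 37.1 to 55.2) were higher at 25 °C. A ratio of at least 1.5 was found in 7 pairs (6.19%), against 20.1% of the 12832 nuclear pairs. A ratio of at most 1/1.5 was found in 10 pairs (8.85%), against 6.69% of all nuclear pairs. The median ratio over all nuclear pairs was 1.099, and over pairs touching protein-coding genes on the arms 1.13.

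The width of paired regions was alike in the median. The median ratio of widths was 1.0 (quartiles 0.789 to 1.43), against 1.18 over all nuclear pairs and 1.25 over pairs of protein-coding genes on the arms. At least 1.5 times the width was found at 25 °C in 27 pairs (23.9%), against 36.9% of all nuclear pairs. At most 1/1.5 of the width was found in 23 pairs (20.4%), against 16.6%.

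The pairs fell into low and tall ones. In 83 pairs with heights under 500 in both lists the median ratio of heights was 1.03, and 46 were higher at 25 °C. In 30 pairs reaching 500 in either list it was 0.828, and 6 were higher at 25 °C. The 22 pairs with a centre within 300 bp of at least 50 bases identical to an organelle genome had a median ratio of 0.869, with median heights of 749.0 at 25 °C and 884.5 at 16 °C, and 17 were lower at 25 °C. The other 91 had a median ratio of 1.02, with median heights of 239.8 at 25 °C and 240.0 at 16 °C. Chloroplast DNA itself held 26.2% of the signal of all regions at 25 °C and 34.9% at 16 °C, a ratio of 0.75. Its part in the heights of these pairs was not tested.

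**Figure D3:**
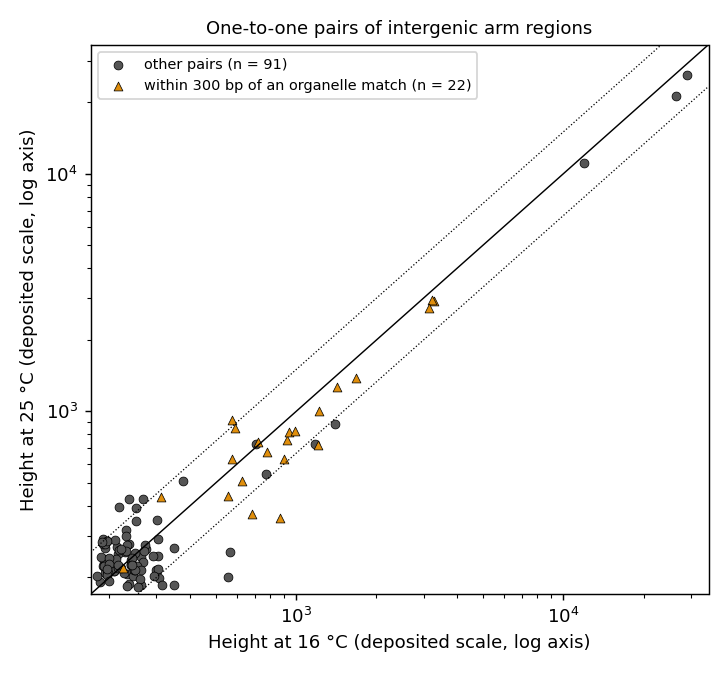
Height at 25 °C (vertical) against height at 16 °C (horizontal), both on the deposited scale and log axes, for 113 one-to-one pairs of intergenic arm regions. The solid line marks equal heights and dotted lines a ratio of 1.5 either way; the 22 pairs within 300 bp of an organelle match (orange triangles) lie mostly under the solid line (17 of 22), and the other 91 (grey) on both sides of it.

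Among pairs at least 100 bp wide in both lists, those with the largest ratios of height were near genes of varied function. The largest ratio was at chr1:10090981-10091370, between AT1G28750 and AT1G28770, with a height of 429.7 and a width of 390 bp at 25 °C, against 236.0 and 110 bp at 16 °C (ratio 1.82). A second region of this gap, chr1:10091491-10092030, was 540 bp wide with a height of 395.1 at 25 °C and overlapped a 40 bp region of height 217.6 at 16 °C. The gap thus carried a broader signal at 25 °C over both regions. The pair beyond the end of MIR156c, at a distance of 347 bp, had a height of 426.3 at 25 °C and 266.8 at 16 °C (ratio 1.60), and widths of 200 and 140 bp. The pair 162 bp from the start of ELF6 had 278.0 at 25 °C and 192.5 at 16 °C (ratio 1.44), and widths of 170 and 120 bp. Further upstream of ELF6, a 580 bp region of height 592.5 at 25 °C reached another gene and overlapped an intergenic region of height 285.6 at 16 °C. The pair at chr1:11131331-11131510, between AT1G31166 and SRX, which encodes a chloroplast sulfiredoxin, had 922.7 at 25 °C and 573.2 at 16 °C (ratio 1.61) and lay beside a chloroplast match. The last of these pairs, chr1:8782701-8782890, had 391.3 at 25 °C and 250.7 at 16 °C (ratio 1.56), in sequence of which 92.0% of 50-base words occur elsewhere in the genome.

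Among the same pairs of at least 100 bp, the 5 smallest ratios were at loci that reached a height of 500 in at least 1 list. The smallest of these was at chr3:19219391-19219530, between G4 and SAC8, with 357.4 at 25 °C and 867.4 at 16 °C (ratio 0.412). G4 encodes the enzyme that attaches the phytyl tail in chlorophyll synthesis, and SAC8 a phosphoinositide phosphatase. The next, chr1:21153411-21153550, had 370.9 at 25 °C and 684.4 at 16 °C (ratio 0.542), and chr5:3110771-3110940 had 725.7 and 1210.8 (ratio 0.599). Each of these 3 lay within 300 bp of an organelle match. The fourth, chr1:12293461-12293570, had 731.9 at 25 °C and 1174.5 at 16 °C (ratio 0.623). The fifth, chr2:19697841-19697970 at the end of the chromosome, had 887.3 at 25 °C and 1404.4 at 16 °C (ratio 0.632). No replicate spread is at hand for any of these differences.

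Changes in width were found in both directions among these pairs of at least 100 bp in both lists. After the pair on chromosome 1 already given, the largest ratio of widths was at chr4:1586041-1586270, 60 bp beyond the end of TPC1, which encodes a vacuolar cation channel, and beside a chloroplast match. It was 230 bp wide with a height of 438.0 at 25 °C, against 140 bp and 312.0 at 16 °C. Their smallest ratios outside organelle matches were at chr1:7024871-7025030 and chr5:5448551-5448710, both 160 bp wide at 25 °C, against 250 bp at 16 °C. Their heights were 349.6 at 25 °C against 300.5 at 16 °C for the first, and 291.4 at 25 °C against 303.0 at 16 °C for the second. The narrower region was thus the taller one in the first of these pairs and the lower one in the second. The pairs beside the chloroplast matches near AT3G44805 and CYP78A7 were also narrower at 25 °C, with 190 bp against 300 bp at 16 °C for the first. Either side of the second was 170 and 160 bp wide at 25 °C, against 290 and 240 bp at 16 °C. A pair 43 bp from the start of AT4G00960, chr4:413941-414160, had the opposite order, with 220 bp and a height of 628.8 at 25 °C, against 160 bp and 577.9 at 16 °C.

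The position of the regions relative to genes was then examined. Intergenic arm regions lay near genes, and a larger share of them than of the sequence lay within 500 bp of a gene start. At 25 °C the median distance to the nearest gene was 312 bp (quartiles 102 to 780), and at 16 °C 315 bp (102 to 776). The nearest gene edge was a start for 62.4% of regions at 25 °C (interval 60.5 to 64.3) and 62.3% at 16 °C (60.5 to 64.0), close to the 60.4% of arm sequence outside genes. Within 500 bp of a gene start lay 43.4% of regions at 25 °C (interval 41.5 to 45.4) and 43.7% at 16 °C (41.9 to 45.5), against 32.9% of the arm sequence outside genes. Distances of regions were taken from their nearer edge. Within 200 bp it was 26.4% and 25.9%, against 15.6% of that sequence. These shares differed between the temperatures by less than their intervals.

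Along the distance from a gene, the sequence covered by intergenic arm regions was highest between 100 and 200 bp. There it was 1.28% at 25 °C and 1.46% at 16 °C beside gene starts, and 1.03% and 1.24% beside gene ends. Between 1000 and 1500 bp from a start it was 0.574% at 25 °C and 0.707% at 16 °C. Closer to the gene the whole set of regions behaved otherwise. In the first 50 bp before a gene start, regions of any kind covered 7.11% at 25 °C and 5.85% at 16 °C, but intergenic arm regions only 0.470% and 0.559%, since a region there usually reached into the gene.

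**Figure D4:**
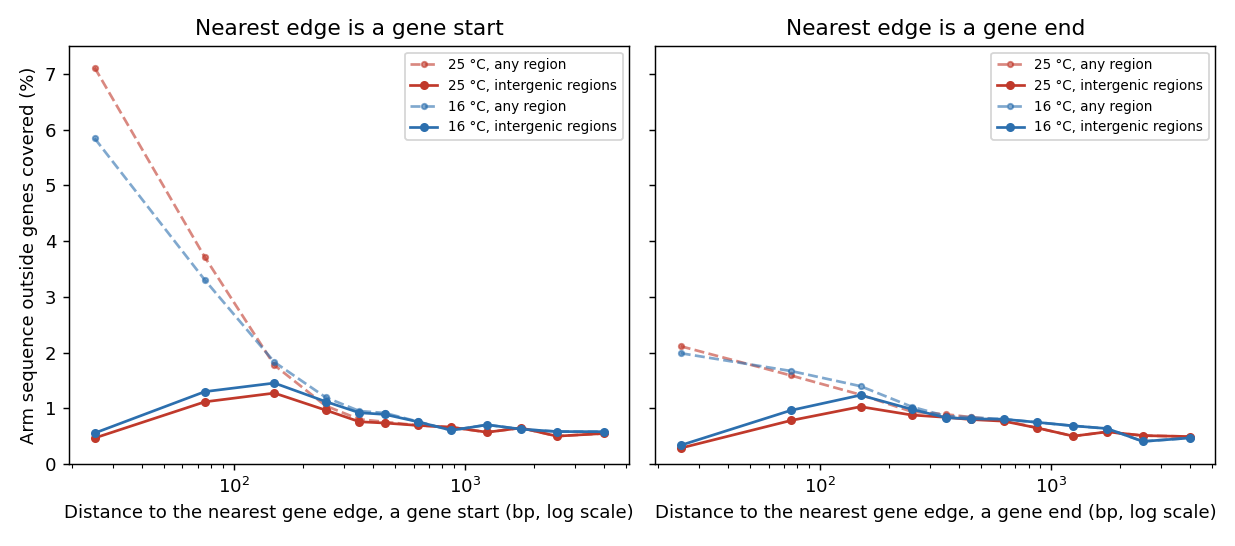
Arm sequence outside genes covered by regions (%), by distance to the nearest gene edge (bp, log scale), where that edge is a gene start (left) or a gene end (right), at 25 °C (red) and 16 °C (blue). Solid lines are intergenic arm regions, which peak at 100 to 200 bp (1.28% at 25 °C and 1.46% at 16 °C before starts); dashed lines are regions of any kind, which rise to 7.11% and 5.85% in the 50 bp before gene starts.

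The kind of gap between genes made little difference once its length was counted. Gaps between 2 gene starts (divergent) held 33.2% (25 °C) and 34.2% (16 °C) of the regions, against 33.4% of the arm sequence outside genes. Gaps between a start and an end (tandem) held 54.3% and 54.4%, against 53.9%, and gaps between 2 gene ends (convergent) held 12.4% and 11.2%, against 12.7%. Short gaps were covered more densely. In gaps of 500 bp or less, 0.965% of the sequence was covered at 25 °C and 1.199% at 16 °C, and in gaps over 5000 bp 0.548% and 0.670%.

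Few regions stood far from genes. A distance of 1000 bp or more was found for 461 regions at 25 °C (18.5%) and 558 at 16 °C (18.95%), and of 3000 bp or more for 43 and 57. The region in both lists that was farthest from a gene, whose sequence is given above, had a width of 140 bp and a height of 268.3 at 25 °C, against 60 bp and 214.3 at 16 °C. It lay 2897 bp at 25 °C and 2927 bp at 16 °C from the start of ZF14. The next, chr1:10241721-10241760 at 25 °C, lay 2692 bp from the start of AT1G29290 and had heights of 203.1 at 25 °C and 246.0 at 16 °C. The third was between GA20OX1, a gibberellin biosynthesis gene, and TRM23, with heights of 208.3 at 25 °C and 197.9 at 16 °C. The heights of the 3 ran between 197.9 and 268.3 over both lists.

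Whether the regions lay beside marked genes was asked next. A gene was counted as marked when a region of the same list overlapped its body. The nearest protein-coding gene was marked for 1446 regions at 25 °C (58.0%, interval 56.1 to 59.9) and 1589 at 16 °C (54.0%, 52.2 to 55.8). Of all protein-coding genes on the arms, 60.6% were marked at 25 °C and 57.1% at 16 °C. Counted per region, the neighbours were marked slightly less often than arm genes counted once each. These are unlike counts, since a gene can be the neighbour of more than 1 region. For regions found in both lists the share was 66.2% at 25 °C and 68.1% at 16 °C, against 57.5% and 53.0% for regions of 1 list. The nearest region touching a gene was at a median distance of 1560 bp (25 °C) and 1840 bp (16 °C). For regions in both lists it was 685 bp (25 °C) and 510 bp (16 °C). Of these regions, 34 of 154 at 25 °C and 63 of 185 at 16 °C counted only through a region of the other list that reached into a gene. Nearness to genes was thus partly built into this group, and what this adds to its shares and distances was not tested.

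The widest intergenic regions were examined singly, and part of them lay in repeated sequence. The widest at 25 °C, chr1:8781991-8782600, was 610 bp wide with a height of 510.3, and at 16 °C it was 520 bp wide with a height of 378.0. It has 4 other copies in the genome, the closest spanning a pseudogene and LpxC1, which encodes an enzyme of lipid A synthesis. A 610 bp region at chr1:8798521-8799130 at 25 °C also has 3 other copies, and overlapped a 40 bp region of height 190.3 at 16 °C. Reads from such copies cannot be told apart here. The region at chr5:8952421-8953020, of 600 bp and height 445.0 at 25 °C, has no other copy and overlapped 2 regions at 16 °C. It lay 354 bp from the start of AT5G25754. The region at chr2:6563581-6564080, of 500 bp and height 325.4 at 25 °C, ended 23 bp from the start of AT2G15128.

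After the copy-bearing locus given first, the widest at 16 °C was chr5:20152021-20152380, which lay 350 bp from the start of XK-2, a xylulose kinase gene. There the region was 920 bp wide with a height of 483.6 at 25 °C, against 360 bp and 424.4 at 16 °C. At chr2:10376571-10376880 the width was 450 bp and the height 411.5 at 25 °C, against 310 bp and 339.8 at 16 °C. At both places the region reached a protein-coding gene at 25 °C and lay outside genes at 16 °C.

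Some regions of 300 bp or more were in 1 list only. At 25 °C the tallest was chr3:11097911-11098340, of 430 bp and height 399.4, which lay 164 bp from the start of AT3G29120. It was followed by chr4:1528551-1528880, of 330 bp and height 306.4, 180 bp from the start of MIR447a, a microRNA gene, and by chr1:470771-471110, of 340 bp and height 301.9. At 16 °C the tallest was chr1:25951621-25951930, of 310 bp and height 393.8, which lay 2280 bp from the nearest gene. The others were chr5:7670741-7671040, of 300 bp and height 331.3, and chr1:28702041-28702380, of 340 bp and height 325.1. The last of these lay 2582 bp from the start of SOB3, which encodes an AT-hook protein of hypocotyl growth. The 3 at 16 °C lay over 1000 bp from any gene, and the 3 at 25 °C within 200 bp of one.

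The base composition of the regions differed from that of genic ones. The median GC content was 31.7% at 25 °C and 30% at 16 °C, against 38.7% and 38.6% for arm regions touching a protein-coding gene. The arm sequence outside genes has 29.8% as a whole. Simple repeats of units up to 3 bases made up 0.535% (25 °C) and 0.646% (16 °C) of the sequence of the regions, against 0.710% of the arm sequence outside genes. Another place in the nuclear genome, aligned over at least 80% of the region at 90% identity, was found for 175 regions at 25 °C (7.02%) and 237 at 16 °C (8.05%).

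Promoter motifs were counted in windows of 300 bp centred on the regions, on both strands. The windows lay outside genes for 1881 regions at 25 °C and 2205 at 16 °C, and were set beside 92189 windows tiled over arm sequence outside genes. The motifs were searched separately and may overlap. CACGTG, the G-box core bound by bHLH and bZIP factors, was in 7.34% of windows at 25 °C (interval 6.24 to 8.60) and 6.21% at 16 °C (5.28 to 7.30), against 4.43% of the tiled windows. TGGGCC, the site II core of many housekeeping promoters, was in 8.88% (7.68 to 10.3) and 8.66% (7.56 to 9.91), against 5.86%. TATAAA, the TATA box core, was in 45.6% (43.3 to 47.8) and 50.4% (48.4 to 52.5), against 55.9%. The GC-richer cores were thus more frequent and the TATA core less frequent than in the tiled windows. Median GC content of the windows was 31.7% at 25 °C and 30.3% at 16 °C, against 29.7%, and its part in these shares was not tested. The regions also lay within 500 bp of a gene start more often than arm sequence outside genes did. The tiled windows were not matched for that distance, and its part was not tested either.

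Other letters gave smaller differences or differed between the lists. GAGAGA was in 20.4% of windows at 25 °C (18.6 to 22.2) and 16.6% at 16 °C (15.2 to 18.3), against 16.6%. CTTCTT was in 32.5% (30.5 to 34.7) and 29.6% (27.7 to 31.5), against 26.6%. AAACCCT, the telo-box core, was in 6.11% (5.12 to 7.29) and 5.26% (4.40 to 6.27), against 5.43%. AAATATC, the evening element core bound by clock factors, was in 13.7% (12.2 to 15.3) and 14.1% (12.7 to 15.6), against 15.5%. A run of 10 A or 10 T was in 12.6% and 14.97%, against 15.01%.

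The tallest regions were examined one by one. Many of them stood beside sequence that also occurs in the organelle genomes. A match was counted where at least 50 bases, the read length, were identical to the chloroplast or mitochondrial genome. Within 300 bp of such a match lay the centre of 17 of the 25 regions of height 500 or more at 25 °C (68.0%, interval 48.4 to 82.8) and 20 of 31 at 16 °C (64.5%, 47.0 to 78.9). Under a height of 500 it was 8 regions at 25 °C (0.324%) and 7 at 16 °C (0.240%). Of the arm sequence outside genes, 0.0765% is as close to a match.

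The regions flanked these matches at a regular distance. Outside genes the arms have 33 matches, with a median length of 58 bases. A region centred between 100 bp from the centre of the match and 300 bp from its edge was looked for on either side. Both sides had one at 9 matches at 25 °C and 11 at 16 °C, with 9 matches doing so in both lists. One side had one at 4 and 2 matches, and 20 matches had none at either temperature. No region of any kind was centred nearer than 100 bp to the centre of a match in either list. Where both sides had a region, their centres were a median of 390 bp apart at 25 °C (range 384 to 399) and 390 bp at 16 °C (334 to 484). Their median width was 160 bp at both temperatures, and their median height 839.8 at 25 °C and 884.5 at 16 °C. Of 22 such flanking regions at 25 °C, 2 reached a gene and were not intergenic, and 3 of 24 at 16 °C.

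**Figure D5:**
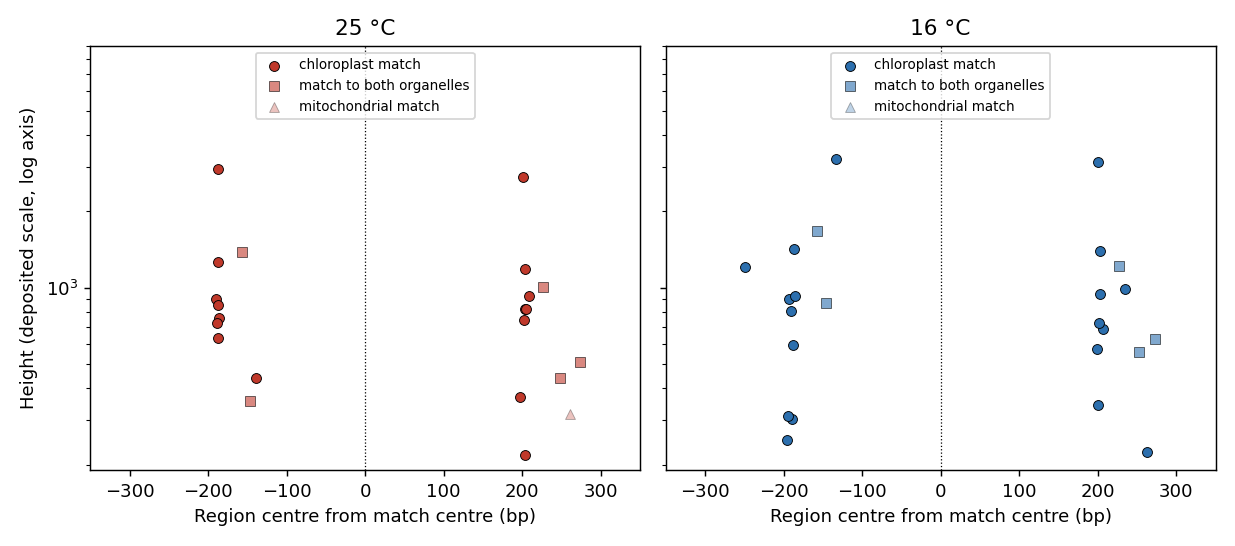
Height (deposited scale, log axis) of regions beside the 33 organelle matches on the arms outside genes, by distance of the region centre from the centre of the match (bp), at 25 °C (left, 22 regions) and 16 °C (right, 24 regions). Circles are chloroplast matches, squares matches to both organelles and the triangle a mitochondrial match; regions stand about 200 bp to either side of the matches, and the search left out centres within 100 bp, where neither list had any.

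Flanking regions were mostly beside chloroplast matches. Of 14 chloroplast matches, 9 had a region on at least 1 side at 25 °C and 10 at 16 °C. Both sides had one at 7 of them at 25 °C and 9 at 16 °C. Of 16 mitochondrial matches, 1 had one at 25 °C and 0 at 16 °C. The other 3 were counted as matching both genomes. The first chloroplast match printed above, of 91 bases, had heights of 2933.2 and 2727.5 on its sides at 25 °C, and 3223.9 and 3143.4 at 16 °C. The match to psaA had 1267.0 and 1188.7 at 25 °C, and 1418.4 and 1400.5 at 16 °C. The match to rpoA had 853.8 and 742.3 at 25 °C, and 593.0 and 722.2 at 16 °C. The chr1 match beside SRX had 901.6 and 922.7 at 25 °C, and 810.0 and 573.2 at 16 °C. Over the matches of any kind with a region on both sides, the taller side was a median of 1.14 times the lower at 25 °C (range 1.02 to 1.70). At 16 °C it was 1.22 times (1.01 to 1.56). Whether reads of organelle origin contribute to these heights was not tested.

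A few of the tallest regions were beside other repeated sequence. One of them, chr5:3252781-3253000, had 21341.8 at 25 °C and 26365.0 at 16 °C, and lay 121 bp from the start of AT5G10340. A stretch of 442 bases around it has a copy of 99.5% identity on chromosome 1, at chr1:27069187-27069628. Next to that stretch, 193 bases from position 3253118 are 97.9% identical to sequence 1257 bp from the rRNA gene AT2G01010. The region chr2:761-950, at the start of chromosome 2, had 11085.8 at 25 °C and 11984.8 at 16 °C, and all of its 190 bases are N in the reference sequence. The region chr1:4599191-4599390 had 2927.0 at 25 °C and 3295.7 at 16 °C. It lay 49 bp beyond the end of NUB, beside a match of 109 bases to ycf2, a large chloroplast gene.

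In total, the regions of height 500 or more made up 32 distinct loci. At 20 of them sequence within 400 bp aligned to an organelle genome, at 10 it aligned to other nuclear sequence only, and at 2 it aligned to nothing else. An alignment counted from 50 bases at 90% identity. At the 10 loci the best one ran from 50 bases (chr5:24741601-24741750) to 1411 bases (chr1:8781991-8782600). Other regions and arm sequence were not aligned in this way, so no share can be set beside these counts. The 2 loci with no alignment were neighbours, chr1:12293461-12293590 and chr1:12293901-12294010, with heights of 731.9 and 545.6 at 25 °C, and 1174.5 and 771.1 at 16 °C.

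Which genes of known pathways had an intergenic arm region nearby was asked last. Lists of genes were counted by whether a region lay within 1000 bp of either gene end. Of all 25701 protein-coding genes on the arms, 9.17% had one at 25 °C and 10.4% at 16 °C. Flowering time genes had one for 5 of 32 members at 25 °C and 3 of 32 at 16 °C. Clock genes had one for 1 and 2 of 20 members, splicing regulators for 2 and 1 of 23, and auxin genes for 4 and 2 of 21. For the shoot meristem and leaf polarity it was 3 and 2 of 19, for core histones 2 and 1 of 10, and for root and seed markers 2 and 2 of 16. The gene list of the H3K36 methylation machinery, in which the demethylase gene ELF6 was put, had one for 2 of 11 at each temperature. ELF6 counted at both temperatures, and whether it acts on H3K36 was not checked. Photosynthesis genes had none of 21 in either list, and their intervals reached 15.5%. All intervals of these lists at both temperatures held the share of all arm genes, with 1 exception.

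The exception was the list of heat and temperature response genes, with 5 of 23 at 25 °C (21.7%, interval 9.66 to 41.9) and 0 of 23 at 16 °C (0 to 14.3%). The lower bound at 25 °C was just above the 9.17% of all arm genes, over 10 lists and 2 temperatures, and the 2 intervals of this list overlapped. The regions were low, and the genes are named here after their values were seen. HSP90.1, encoding a heat-inducible chaperone, had a region of height 243.5 at 6 bp from its start. HY5, encoding a bZIP factor of light signalling, had one of 202.5 at 27 bp from its start. COP1, whose product targets HY5 for degradation, had one of 227.0 beyond its end, and so did PIL6, encoding a phytochrome-interacting factor, with 252.0, and HSC70-1, a chaperone gene, with 245.2. None of the 5 was overlapped at 16 °C, where the nearest region lay from 260 to 2430 bp away.

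The flowering time genes with a nearby region other than VEL1 are also named here after their values were seen. At 25 °C the regions had heights of 227.4 at 570 bp from the start of FRI, an activator of FLC whose allele in Col-0 is not functional, and 206.3 at 109 bp from the start of FCA, which lowers FLC expression. A region of 216.7 between MAF4 and MAF5, floral repressors of the FLC clade, counted for both. At 16 °C the heights were 217.3 beyond the end of LD and 261.0 at 228 bp from the start of TOE2, which encodes an AP2-type repressor of flowering. At FRI and FCA the 16 °C list held regions of 1270 and 1100 bp in reach of a gene, with heights of 671.2 and 995.1, at 180 and 280 bp from the intergenic region. The region between MAF4 and MAF5 stood farther off and lay 2610 bp from the nearest region at 16 °C.

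Of the regions beside clock, splicing and auxin genes, those of PRR7 and RS2Z33 were overlapped in the other list. The region 20 bp from the start of PRR7, a clock repressor, had a height of 255.7 at 25 °C and was overlapped at 16 °C by a 950 bp region of height 409.2 that reached a gene. The region at the start of RS2Z33, which encodes a splicing factor of the SR family, had 231.2 at 25 °C and was overlapped at 16 °C by a 350 bp genic region of height 340.4. The tallest region at 25 °C beside a listed gene was 11 bp from the start of NPH4, which encodes an auxin response factor, with a height of 310.7 and no overlap at 16 °C. These 3 were also chosen after their values were seen.

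Genes of the lists with a region before their start in both lists were few. VEL1, encoding a relative of the vernalization protein VIN3, had a 40 bp region of height 223.5 at 159 bp from its start at 25 °C and a 40 bp region of height 194.7 at 319 bp at 16 °C. PHB, encoding an HD-ZIP III factor of upper leaf identity, had one of 213.0 at 885 bp at 25 °C and one of 274.7 at 385 bp at 16 °C. For these 2 genes the regions of the lists did not overlap and were 120 and 360 bp apart. ELF6 was the third, and its pair shared 50 bp. Among the H3K36 methylation genes, ASHH3, encoding a SET-domain methyltransferase, had a region of height 241.5 at 38 bp from its start at 25 °C only, which is named after its value was seen.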

How the data were processed

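H3K36me3 ChIP-seq reads (50 bp, single) were mapped to TAIR10 by the authors. Bowtie is named in the study's methods and Bowtie2 in the submitters' processing notes, without a version. DANPOS2 (Dpeak) was used by the authors to call regions, after extension of the reads to 150 bp, and gave 1 deposited list for all replicates of a temperature. The role of the H3 samples in calling was not given in the sources used here. Per the file headers, the lists hold the position of every region, its height and summed value, which are coverage (signal), and a −log10 p-value for the height. The weakest −log10 p of both lists corresponds to a Poisson mean of 107.15, so the deposited lists were taken to be on 1 scale. Deposited positions are in steps of 10 bp, starts were read as counted from 0, and printed regions run from start plus 1 to end.

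Genes were those of all biotypes in the RefSeq annotation of TAIR10.1 (37899 nuclear genes, 27444 protein-coding), whose chromosomes have the lengths of TAIR10. Sequences are from the same RefSeq assembly. Regions on the organelle genomes were left out, apart from the shares of signal. Overlap meant at least 1 bp. Alignments used BLAST+ 2.17.0, and other steps Python 3.11.15 with numpy 2.4.6, pandas 2.3.3, scipy 1.17.1 and matplotlib 3.10.9. Shares have Wilson 95% intervals. No test was made, since each temperature has 1 list, and no value belongs to a single replicate. Named regions followed a rule: the 5 tallest and 5 widest of each list, the 3 overlapped ones farthest from a gene, the 5 pairs at each end of the ratios of height and width among those of at least 100 bp in both lists, the 3 tallest of at least 300 bp in 1 list only, and list genes with a region before the start in both lists. One of the 5 tallest regions of each list is not reported here. The members, lists and rules were chosen with earlier results of these data known. Calculations were tested on simulated data. Alternatives changed the distance from genes, the genes counted, the width, the −log10 p, the overlap and the windows, and are given at the end.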

Additional observations from a re-analysis of the deposited data

How the results depend on the processing

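No alternative for the 14 summary values carries a replicate check. Of 158 alternative values 100 stayed near the main value and 58 did not. Near meant within 1.5 times for numbers of regions and covers, and within the interval of the main value for shares. For medians it meant within an interval of the median, not given here, rather than within the quartiles. A median width of 100 bp at 25 °C thus counted as moved, although the quartiles ran from 60 to 120 bp. With regions at least 200 bp from any gene, there were 1524 at 25 °C and 1793 at 16 °C, overlapped in 4.27% and 4.07%, covering 0.447% and 0.502%, with 23.8% and 25.5% within 500 bp of a start and a marked neighbour for 53.1% and 48.7%. At 1000 bp or more there were 461 and 558, overlapped in 4.12% and 3.58%, covering 0.134% and 0.156%, with a marked neighbour for 49.2% and 46.2%, and the median ratio of widths over 19 pairs was 0.875. With protein-coding genes alone as genes, 11.9% and 12.5% were overlapped and 31.9% and 34.4% lay within 500 bp of a start. With regions wider than 150 bp alone, 127 and 148 were left, overlapped in 23.6% and 21.6%, with median widths of 190 and 180 bp, a cover of 0.0885% and 0.095%, 45.7% and 52.7% near a start, a marked neighbour for 51.2% and 50.7%, and a median ratio of heights of 0.893 over 23 pairs. With the 50% of each list with the larger −log10 p, 239 and 396 were left, overlapped in 15.9% and 10.1%, with a median width of 150 bp in both, a cover of 0.126% and 0.191%, 45.6% and 40.9% near a start, a marked neighbour for 45.6% and 45.2%, and a ratio of heights of 0.869 over 31 pairs. Under a reciprocal overlap of 50%, 2.81% and 2.38% were overlapped. Within 200 bp of a start lay 26.4% and 25.9%, and within 1000 bp 60.5% and 59.8%. Of the alternatives chosen after seeing the data, leaving out 25 °C regions lower than 204.8, the lowest height times the ratio of nuclear shares of signal (1.142), gave 7.58% overlapped, a median width of 100 bp and a marked neighbour for 55.8%. Without regions near an organelle match, or with starts read as counted from 1, all values stayed. The settings change which regions, genes or overlaps are counted, and the causes of the changes were not tested. No share within 500 bp of a start was given for regions 1000 bp or more from genes. Leaving out annotated mobile elements was not run, since the annotation used here lists 0 on the nuclear chromosomes, nor was leaving out a replicate. No paired analysis was possible because the lists pool the replicates, whose letters the temperatures share. Depth per sample is unknown, so a region of 1 list near the lowest height called does not show a difference between the temperatures.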

Other observations

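The nearest gene of an intergenic arm region was mostly protein-coding, for 2079 regions at 25 °C (83.4%) and 2432 at 16 °C (82.6%). A long noncoding RNA gene was nearest for 158 regions at 25 °C and 214 at 16 °C, a pseudogene for 124 and 154, a microRNA gene for 37 and 38, and a tRNA gene for 31 and 42. Most gaps with a region held only 1, namely 2043 gaps at 25 °C and 2241 at 16 °C. There were 195 gaps with 2 regions at 25 °C and 282 at 16 °C, and the most in a gap was 4 and 6. The only intergenic arm regions of height 500 or more without a counterpart were both at 16 °C. They were chr2:10231-10280, of 50 bp and height 2206.5, and chr2:11839361-11839510, of 150 bp and height 525.8.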
